A study of Mus musculus with 10 samples.

Results

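The small proline-rich (Sprr) genes were followed in the uterus of adult mice that had been exposed before birth to bisphenol A (BPA), a building block of plastics with weak estrogenic activity. All bead probes carrying the platform symbol of Sprr1a, Sprr2a1, Sprr2b, Sprr2d, Sprr2e, Sprr2f or Sprr2g were taken, which gave 8 probes of 7 genes out of 45281 probes and 19057 gene symbols on the array. Sprr2a1 had a pair of probes, ILMN_3150677 and ILMN_3071908, and each of the other genes had 1. A probe was tested when its detection p-value was under 0.05 on at least 2 of the 10 arrays. All 8 passed, but the Sprr2b probe did so mainly through arrays of offspring without BPA, and ILMN_3071908 was detected on only 4 arrays.

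Small proline-rich proteins are short precursors that transglutaminases cross-link into the cornified envelope, the insoluble shell beneath the membrane of surface cells in skin and other stratified epithelia. Several Sprr2 genes are also made by the simple epithelium lining the mouse uterus, where they are known to respond to estrogen. The genes lie side by side in the epidermal differentiation complex and their coding sequences are very alike, so a short probe designed for one member may bind the RNA of another. Probe sequences were not used here, and the part of such cross-hybridization in any value was not tested.

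All animals were CD-1 mice, an outbred stock, and the ovaries of all offspring were removed at 6 weeks, which takes away their main source of estrogen. In the BPA-E2 group (3 arrays), dams received BPA at 5 mg/kg per day by the intraperitoneal route on gestation days 9 to 21, and their offspring were given 300 ng of estradiol (E2) at 8 weeks. The BPA-vehicle group (3 arrays) had the same dams' treatment and a DMSO injection at 8 weeks, the CTL-E2 group (2 arrays) had DMSO in utero and E2 at 8 weeks, and the CTL-vehicle group (2 arrays) had DMSO at both times. The uterus was taken 6 h after the injection, and each array held whole-uterus RNA pooled within a litter, with 1 E2 and 1 vehicle array from each of 3 BPA litters and 2 control litters.

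The median raw signal of an array lay between 122 and 132, and 19723 to 21109 probes were detected. Arrays of a group correlated at r = 0.991 to 0.993 across probes. All control arrays lay on slide 1 and all BPA arrays on slide 2, so that in utero exposure and slide cannot be told apart in any comparison between exposures, including the difference of the E2 responses. All 12 uterine tissue markers, among them Hoxa10, Hoxa11, Esr1 and Pgr, were detected on all 10 arrays. Of these 12, 1 was higher and 6 were lower with E2 after BPA, against 13% and 11.9% of all probes. With E2 after vehicle in utero, the estrogen-induced genes Pgr and Greb1 were higher (log2 change 1.17 ± 0.12, adjusted p = 0.000446, and 1.02 ± 0.09, adjusted p = 0.000203). With E2 after BPA, Greb1 changed by -0.69 ± 0.07 (adjusted p = 0.000267) and the estrogen-induced secretory gene Ltf by -3.16 ± 0.07 (adjusted p = 4.54e-08). Pgr did not pass after BPA (0.18 ± 0.10, adjusted p = 0.228), and Ltf did not pass after vehicle in utero (-0.05 ± 0.08, adjusted p = 0.725). Levels without E2 differed between the exposures. Ltf averaged 15.40 in CTL-vehicle and 15.35 in CTL-E2 uteri, against 13.80 in BPA-vehicle and 10.65 in BPA-E2 uteri. Pgr and Greb1 averaged 9.27 and 10.34 in BPA-vehicle uteri, against 8.26 and 9.44 in CTL-vehicle uteri. Ltf and several Sprr2 genes are known to be induced by estrogen in mouse uterus, yet here Ltf was lower or did not pass, and no small proline-rich probe was called higher, on arrays labelled E2. Groups are named as labelled, and the direction of every E2 change rests on these labels. Levels are normalized log2 intensities, changes are log2 fold changes ± standard error, and adjusted p-values come from a single limma fit of the 4 group means over 23942 probes with Benjamini-Hochberg adjustment. A change was called at an adjusted p under 0.05. Precision is limited by having 2 or 3 arrays in a group, and a level on one probe cannot be set against a level on another.

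In the RefSeq annotation of GRCm38.p6, the small proline-rich genes run from position 92215835 to 92500493 of chromosome 3, a stretch of 284.7 kb. The order of the 7 genes is Sprr2a1 (92215835 to 92222491), Sprr2b (92316705 to 92318085), Sprr2d (92339140 to 92340873), Sprr2e (92352143 to 92353449), Sprr2f (92365187 to 92366442), Sprr2g (92373915 to 92375229) and Sprr1a (92483954 to 92485881). Sprr2g is annotated as a transcribed pseudogene and the other 6 as protein coding. Sprr2d, Sprr2e and Sprr2f are thus direct neighbours. Promoter sequence of RefSeq (GRCm38.p6, 250 bases before to 50 after the annotated start) was at hand for 6 of the 7 genes, all except Sprr2g. The 120 bases from -210 to -91 are shown for the 5 genes whose window held an element for AP-1, the dimer of Fos and Jun proteins known to drive small proline-rich genes in keratinocytes. They let the genes that fell most be read beside their neighbour Sprr2e, which changed little. Capitals mark the AP-1 element TGANTCA and the octamer ATGCAAAT, the binding sequence of POU factors, here read on the opposite strand. Sprr2d, Sprr2e, Sprr2f and Sprr2b are on the plus strand and Sprr1a on the minus strand, and all are written 5′ to 3′ in the direction of transcription.
Sprr2d, chr3:92338930-92339049: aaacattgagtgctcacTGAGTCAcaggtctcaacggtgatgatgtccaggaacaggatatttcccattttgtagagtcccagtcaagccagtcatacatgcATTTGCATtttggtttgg
Sprr2e, chr3:92351933-92352052: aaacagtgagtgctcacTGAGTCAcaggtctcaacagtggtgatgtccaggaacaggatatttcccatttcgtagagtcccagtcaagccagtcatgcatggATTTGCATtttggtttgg
Sprr2f, chr3:92364977-92365096: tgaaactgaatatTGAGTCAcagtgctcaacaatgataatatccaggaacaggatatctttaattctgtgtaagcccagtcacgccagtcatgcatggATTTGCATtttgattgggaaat
Sprr2b, chr3:92316495-92316614: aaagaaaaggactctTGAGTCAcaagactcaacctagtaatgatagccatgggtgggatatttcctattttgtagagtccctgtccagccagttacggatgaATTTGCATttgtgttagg
Sprr1a, chr3:92485972-92486091: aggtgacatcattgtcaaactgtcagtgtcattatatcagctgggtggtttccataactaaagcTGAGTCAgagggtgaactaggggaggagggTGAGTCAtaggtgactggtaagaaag

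The AP-1 element was present in 5 of the 6 windows and in 7.81% of the 32851 RefSeq windows of the same length, searched on both strands. It lay at -193 to -187 in Sprr2d and in Sprr2e, at -195 to -189 in Sprr2b and at -197 to -191 in Sprr2f. Sprr1a carried 2, at -146 to -140 and -116 to -110. The octamer was present in Sprr2b, Sprr2d and Sprr2e at -108 to -101 and in Sprr2f at -112 to -105, against 1.74% of all windows. Both elements together stood in these 4 members and in 0.198% of all windows. The windows are related copies: those of Sprr2d and Sprr2e shared identical bases over 89.3% of their length, Sprr2e and Sprr2f over 79.7% and Sprr2d and Sprr2f over 76.3%. Counts of shared elements are therefore not independent between the members.

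The window of Sprr2a1 differed, sharing 20.3% (Sprr2e) to 53% (Sprr2d) of its length with those of the other Sprr2 members, and it held neither element. These shares depend on the alignment, since the windows of Sprr2d and Sprr2e are themselves alike. Sprr2a1 is annotated over 6657 bases, against 1256 to 1734 for Sprr2b, Sprr2d, Sprr2e and Sprr2f. Whether the windows cover matching positions was not tested. The Sprr2a1 window was identical over its 300 bases to that of Sprr2a2, a near-copy of Sprr2a1 with no probe of its own on the array. The full estrogen response element, GGTCA and TGACC separated by 3 bases, was in 0 of the 6 windows and in 0.07% of all windows. The ETS core AGGAAG was in 2 (Sprr2f and Sprr2a1), against 35.4% of all windows. A STAT element (TTC and GAA) was in 0 with a gap of 3 bases and in 1 (Sprr2a1) with a gap of 4, against 8.3% and 6.95% of all windows, and the interferon response element (GAAA repeated after 2 bases) was in 0, against 3.44%. A match describes letters in these windows and is not a measured binding site.

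**Figure D1:**
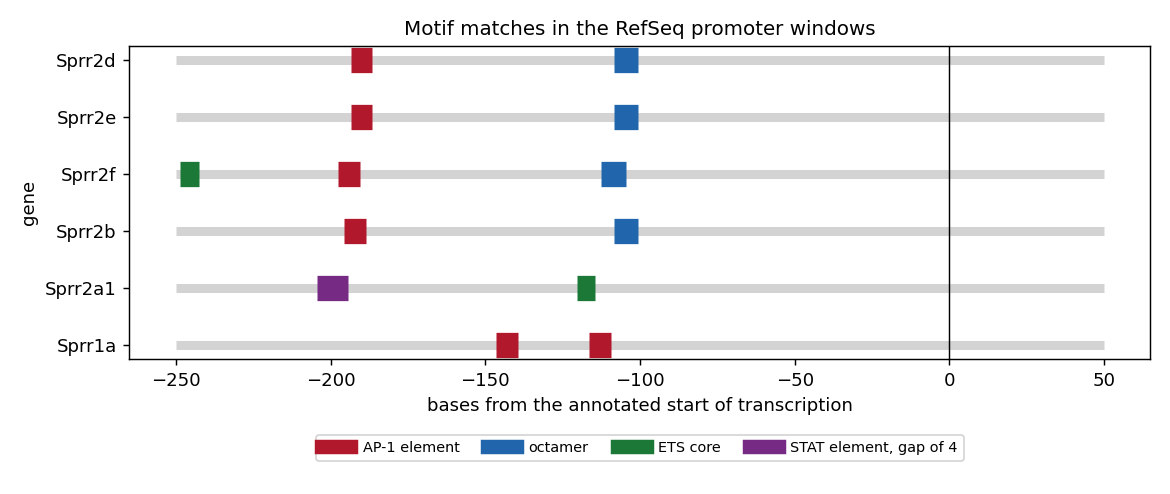
Motif matches in the 300-base RefSeq promoter windows of 6 small proline-rich genes, by distance in bases from the annotated start of transcription (vertical line). Coloured boxes are matches to the AP-1 element, the octamer, the ETS core and the STAT element, and the window of Sprr2a1 is the one without AP-1 element or octamer.

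Across the 4 groups the members fell into different patterns rather than moving as a block. By group means, Sprr2b, Sprr2d, Sprr2e and Sprr2f were lowest in BPA-E2 uteri and highest in CTL-vehicle uteri. BPA-vehicle and CTL-E2 uteri stood between them in that order. Each step of this order was called for Sprr2d alone. BPA-vehicle and CTL-E2 values overlapped for Sprr2e (limma adjusted p = 0.961), and CTL-E2 and CTL-vehicle values for Sprr2f (0.712). Sprr2b was at the floor in both BPA groups. Sprr2g was highest in BPA-vehicle uteri and lowest in CTL-E2 uteri. Sprr1a was also highest in BPA-vehicle uteri, but its values in the other groups overlapped near background, with means of 5.61 (CTL-E2) to 5.67 (BPA-E2). The span between the lowest and the highest group mean was 7.87 on the log2 scale for Sprr2d, 3.38 for Sprr2b, 2.85 for Sprr2f and 1.99 for Sprr1a. For Sprr2g, Sprr2e and the Sprr2a1 probes it was 0.88 or less. RNA of the whole uterus was measured, so fewer cells of a type and less RNA per cell cannot be told apart.

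**Figure D2:**
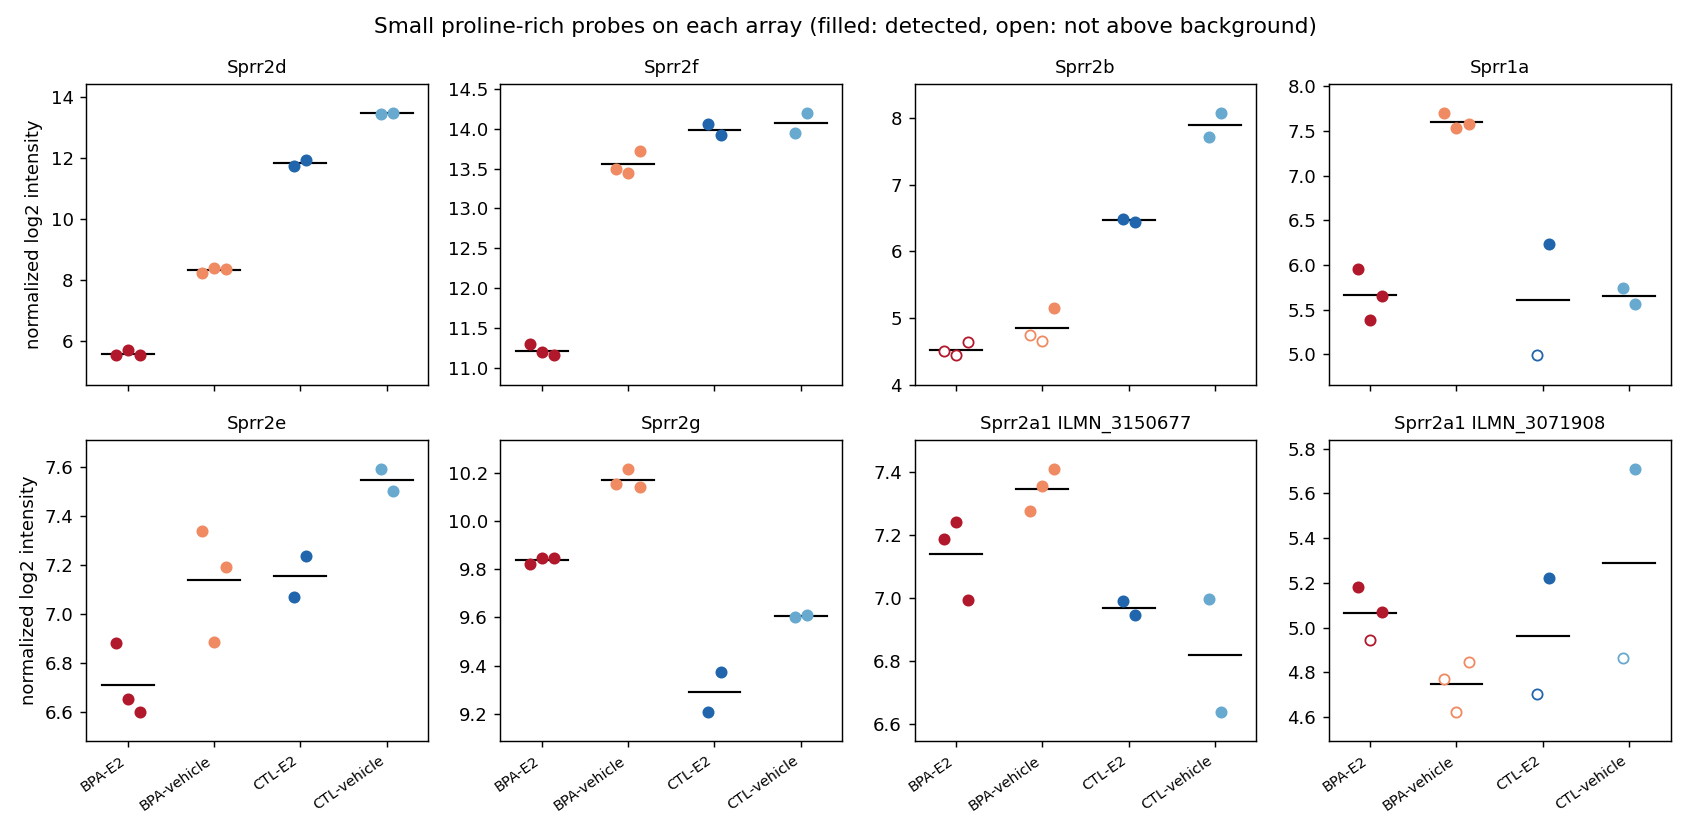
Normalized log2 intensity of the 8 small proline-rich probes on each of the 10 arrays, in groups BPA-E2, BPA-vehicle, CTL-E2 and CTL-vehicle; bars are group means, filled points are detected above background and open points are not, and each panel has its own vertical scale. Sprr2d averages 5.59 and 8.34 in the BPA groups and 11.84 and 13.47 in the control groups, Sprr2f is lowest in BPA-E2 uteri, and Sprr1a is highest in BPA-vehicle uteri.

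Sprr2d, a cornified envelope precursor, had the widest range. Its level was 5.56, 5.69 and 5.53 in the BPA-E2 litters, 8.24, 8.41 and 8.37 in the BPA-vehicle litters, 11.74 and 11.95 in the CTL-E2 litters, and 13.45 and 13.48 in the CTL-vehicle litters. The probe was detected on all 10 arrays, and the 4 groups did not overlap. Raw signal was 144 to 153 in BPA-E2 uteri, 409 to 448 in BPA-vehicle uteri, 3471 and 4091 in CTL-E2 uteri, and 10558 and 10792 in CTL-vehicle uteri. In BPA-E2 uteri it thus stood little above the median raw signal of an array.

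Sprr2f, which is near Sprr2d and known as an estrogen-responsive gene of the mouse uterus, was set apart mainly by its BPA-E2 values. It measured 11.30, 11.20 and 11.16 in the BPA-E2 litters, 13.49, 13.44 and 13.72 in the BPA-vehicle litters, 14.06 and 13.92 in the CTL-E2 litters, and 13.94 and 14.20 in the CTL-vehicle litters. BPA-E2 uteri lay below all others, and the control groups overlapped each other. The raw signal in control uteri was 14594 to 17265, below the highest probe signal of an array (43962 to 47667).

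Sprr2b measured 4.50, 4.44 and 4.63 in the BPA-E2 litters, 4.74, 4.66 and 5.15 in the BPA-vehicle litters, 6.49 and 6.45 in the CTL-E2 litters, and 7.72 and 8.08 in the CTL-vehicle litters. It was not above background on any BPA-E2 array and was so on 1 of 3 BPA-vehicle arrays, while all 4 control arrays detected it. Its levels in BPA uteri are therefore at the floor of the measurement.

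Sprr1a, the member best known from skin and from injured nerve and heart, had a different order. It measured 5.96, 5.39 and 5.65 in the BPA-E2 litters, 7.70, 7.53 and 7.57 in the BPA-vehicle litters, 4.99 and 6.23 in the CTL-E2 litters, and 5.74 and 5.56 in the CTL-vehicle litters. BPA-vehicle uteri stood above the rest, the other 3 groups overlapped, and the CTL-E2 array of litter 1 did not detect the gene. Raw signal was 266 to 318 in BPA-vehicle uteri. It was 142 to 160 in BPA-E2 uteri, 132 and 177 in CTL-E2 uteri, and 144 and 150 in CTL-vehicle uteri. In those 3 groups Sprr1a thus mostly stood little above the median raw signal of an array (122 to 132).

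Sprr2e, whose promoter window is the closest to that of Sprr2d, moved little. It measured 6.88, 6.65 and 6.60 in the BPA-E2 litters, 7.34, 6.88 and 7.19 in the BPA-vehicle litters, 7.07 and 7.24 in the CTL-E2 litters, and 7.59 and 7.50 in the CTL-vehicle litters. Its BPA-vehicle and CTL-E2 values overlapped. The pseudogene Sprr2g, detected on all arrays, measured 9.82 to 9.85 in BPA-E2 uteri, 10.14 to 10.22 in BPA-vehicle uteri, 9.21 and 9.37 in CTL-E2 uteri, and 9.60 and 9.61 in CTL-vehicle uteri. Its groups did not overlap, and both BPA groups lay above both control groups.

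The Sprr2a1 probes did not follow each other. ILMN_3150677 measured 6.99 to 7.24 in BPA-E2 uteri, 7.28 to 7.41 in BPA-vehicle uteri, 6.95 and 6.99 in CTL-E2 uteri, and 6.82 ± 0.25 in CTL-vehicle uteri (mean ± SD, n = 2), and it was detected on all arrays. ILMN_3071908 measured 4.95 to 5.18 in BPA-E2 uteri, 4.62 to 4.85 in BPA-vehicle uteri, 4.70 and 5.22 in CTL-E2 uteri, and 4.87 and 5.71 in CTL-vehicle uteri. It was detected on 2 of 3 BPA-E2, 0 of 3 BPA-vehicle, 1 of 2 CTL-E2 and 1 of 2 CTL-vehicle arrays. The first probe was highest in BPA-vehicle uteri and the second was lowest there, so they give no joint direction for the gene.

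After BPA in utero, 5 of the 8 probes were called lower with E2 and 0 higher, against 11.9% of all probes called lower and 13% called higher (limma, adjusted p under 0.05). At an unadjusted p under 0.05 the count higher was also 0. Sprr2d fell by 2.75 ± 0.09 on the log2 scale, or 6.73-fold (adjusted p = 3.84e-07), and ranked 26 from the lowest of 23942 probes. Sprr2f fell by 2.33 ± 0.11, or 5.03-fold (adjusted p = 1.88e-06), and Sprr1a fell by 1.93 ± 0.28, or 3.82-fold (adjusted p = 0.00127). Each was lower in 3 of 3 litters, with litter values from -2.84 to -2.69 for Sprr2d, -2.56 to -2.19 for Sprr2f and -2.14 to -1.74 for Sprr1a. Smaller falls were called for Sprr2g (-0.33 ± 0.07, adjusted p = 0.0106) and Sprr2e (-0.43 ± 0.13, adjusted p = 0.0415), also in 3 of 3 litters.

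Sprr2b, at the floor in both BPA groups, did not pass (adjusted p = 0.14), and neither did ILMN_3150677 (-0.21 ± 0.11, adjusted p = 0.214) or ILMN_3071908 (adjusted p = 0.318). The median change over the 8 probes was -0.38, against 0.03 over all probes tested. The E2 and vehicle values did not overlap for 8 of 8 probes, against 42.9% of all probes. These include Sprr2b and ILMN_3071908, which were at or near background in both groups, and ILMN_3071908 ran upward (0.32 ± 0.21). The Sprr2e call was lost under 10 of 21 alternatives: without any control array (adjusted p = 0.0515 to 0.0556), without BPA-E2 replicate 2 or 3 (0.115 and 0.127), without BPA-vehicle replicate 1 or 3 (0.127 and 0.11), with no filter on dim probes (0.063) and in a fit of these groups alone (0.0685). Without background correction the log2 changes of Sprr2d, Sprr1a and Sprr2e were -1.53, -0.97 and -0.24.

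After vehicle in utero, 3 of the 8 probes were called lower with E2 and 0 higher (0 also at an unadjusted p under 0.05), against 9.11% and 8.96% of all probes. Sprr2d fell by 1.62 ± 0.11, or 3.08-fold (adjusted p = 5.97e-05), and was lower in both litters (-1.71 and -1.53). Sprr2b fell by 1.43 ± 0.18, or 2.70-fold (adjusted p = 0.000951), again in both litters, and changed by -0.85 without background correction. Sprr2g changed by -0.32 ± 0.09 (adjusted p = 0.0407). Sprr2f, whose signal was high in both control groups, changed by -0.09 ± 0.13 (adjusted p = 0.712), with a 95% interval from -0.38 to 0.21. Sprr1a changed by -0.04 ± 0.34 (adjusted p = 0.953), and its litters gave -0.75 and 0.67.

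Sprr2e changed by -0.39 ± 0.16 after vehicle in utero and did not pass (adjusted p = 0.127), nor did ILMN_3150677 (0.15 ± 0.14, adjusted p = 0.5) and ILMN_3071908 (-0.33 ± 0.26, adjusted p = 0.443). The median over the 8 probes was -0.32, against 0.03 over all probes. Values of the E2 and vehicle arrays did not overlap for 4 of 8 probes (Sprr2b, Sprr2d, Sprr2e and Sprr2g), below the 56.6% of all probes. The Sprr2g call was lost under 13 of 21 alternatives, among them litter as a block (adjusted p = 0.103), a fit of the 4 control arrays alone (0.197), and leaving out CTL-E2 replicate 1 (0.199), CTL-vehicle replicate 1 (0.118), CTL-vehicle replicate 2 (0.128) or any single BPA array (0.0503 to 0.0645).

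**Figure D3:**
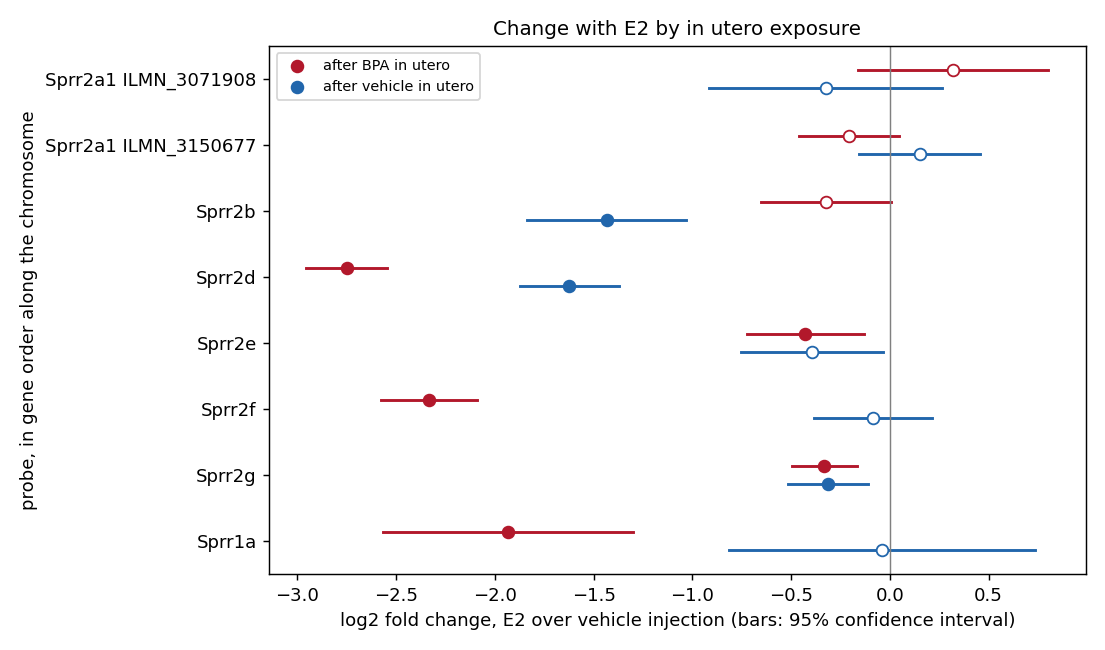
Log2 fold change with E2 over vehicle injection for each small proline-rich probe, after BPA in utero (red) and after vehicle in utero (blue), with 95% confidence intervals; filled points passed at an adjusted p under 0.05. Sprr2f and Sprr1a stand far below 0 after BPA alone, Sprr2d is below 0 after both exposures, and Sprr2b is called after vehicle in utero alone.

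The E2 responses differed between the exposures for 4 of the 8 probes by a test of the difference itself (response after BPA minus response after vehicle). It was negative for 3 and positive for 1, against 6.14% and 6.01% of all probes. For Sprr2f the difference was -2.25 ± 0.17 (adjusted p = 7.48e-05), the response being -2.33 after BPA and -0.09 after vehicle in utero. For Sprr1a it was -1.89 ± 0.44 (adjusted p = 0.025), and for Sprr2d -1.13 ± 0.14 (adjusted p = 0.00126). For Sprr2b it was 1.11 ± 0.23 (adjusted p = 0.0148), in a gene that was above background on 1 of 6 BPA arrays. With Sprr2b at the floor in both BPA groups, a fall as large as that after vehicle in utero could not be measured. Its positive difference therefore does not show a weaker response after BPA. As its probe passed the filter mainly through control arrays, this call and the counts that include it are not independent of the filter.

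The remaining probes did not pass. Sprr2e differed by -0.03 ± 0.21 (95% interval -0.50 to 0.43, adjusted p = 0.942) and Sprr2g by -0.02 ± 0.12 (95% interval -0.28 to 0.24, adjusted p = 0.95). ILMN_3150677 differed by -0.36 ± 0.17 (adjusted p = 0.24) and ILMN_3071908 by 0.65 ± 0.34 (adjusted p = 0.27, or 0.0445 without CTL-vehicle replicate 1). For Sprr2d the difference depended on background correction: without it, or in the authors' deposited table, it was 0.07 (adjusted p = 0.734) and 0.11 (adjusted p = 0.575). Without correction the Sprr2d responses were -1.53 after BPA and -1.60 after vehicle in utero. The differences of Sprr1a and Sprr2b were then -0.98 and 0.71. The Sprr1a call was lost under 7 of 20 alternatives, with litter as a block (0.0516) and without CTL-vehicle replicate 1 (0.0613) or 2 (0.0806), BPA-E2 replicate 2 (0.0545) or 3 (0.0527), or BPA-vehicle replicate 1 (0.0549) or 3 (0.0501). That of Sprr2b was lost without CTL-E2 replicate 2 (0.0516) or CTL-vehicle replicate 2 (0.0554).

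Among E2-injected offspring, BPA uteri were lower than control uteri for 3 of the 8 probes and higher for 1, against 12.8% and 13.7% of all probes. Sprr2d was 76.1-fold lower in BPA-E2 than in CTL-E2 uteri (log2 change -6.25 ± 0.10, adjusted p = 4.89e-09), which ranked 2 from the lowest of 23942 probes. The size of that change depended on the processing, at -4.68 without background correction and -4.65 in the authors' deposited table. Sprr2f was 6.80-fold lower (-2.76 ± 0.12, adjusted p = 1.34e-06). Sprr2b averaged 4.53 ± 0.10 in BPA-E2 uteri (SD, n = 3), not above background, and 6.47 ± 0.03 in CTL-E2 uteri (SD, n = 2), and was at least 2.69-fold lower in BPA-E2 uteri, limma adjusted p = 6.12e-05. Its change was -0.73 without background correction and -0.72 in the authors' deposited table, smaller than that bound. As the Sprr2b probe passed the filter mainly through control arrays, its calls against BPA groups, and the counts that include them, are not independent of the filter. Such bounds set the brighter group's mean against the lowest signal detected at p under 0.05 on each dim array, or the dim probe's own signal where that is higher. They hold only for the background-corrected levels. Sprr2g was 0.55 ± 0.08 higher (adjusted p = 0.00149).

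Sprr2e missed the threshold in E2-injected offspring (-0.44 ± 0.15, adjusted p = 0.0525) and passed under 10 of 21 alternatives, among them leaving out BPA-E2 replicate 1 (0.0453) or BPA-vehicle replicate 1 (0.0444) or 2 (0.0264). Sprr1a changed by 0.06 ± 0.31 (95% interval -0.65 to 0.76, adjusted p = 0.915), ILMN_3150677 by 0.17 ± 0.12 (adjusted p = 0.352) and ILMN_3071908 by 0.11 ± 0.24 (adjusted p = 0.786). The groups did not overlap for 6 of 8 probes, against 53.8% of all probes, and the median change was -0.19, against 0.03. These comparisons, like those that follow, share arrays with the E2 responses above and are not independent of them.

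Among vehicle-injected offspring, 3 of the 8 probes were lower and 3 higher in BPA uteri, against 12.7% and 14.2% of all probes. Sprr2d was 34.9-fold lower in BPA-vehicle than in CTL-vehicle uteri (log2 change -5.12 ± 0.10, adjusted p = 1.96e-08), or -4.75 on the log2 scale without background correction. Sprr2b changed by -3.05 ± 0.16 (adjusted p = 5.84e-06), or by -1.44 both without background correction and in the authors' deposited table. Only 1 of 3 BPA-vehicle arrays was above background for Sprr2b, so the size of its change is not settled. This Sprr2b call too is not independent of the filter. Sprr2f was lower by a much smaller factor of 1.43 (-0.52 ± 0.12, adjusted p = 0.0126). Sprr1a was 3.87-fold higher in BPA-vehicle uteri (1.95 ± 0.31, adjusted p = 0.00205), Sprr2g 1.48-fold (0.57 ± 0.08, adjusted p = 0.00121) and ILMN_3150677 of Sprr2a1 1.44-fold (0.53 ± 0.12, adjusted p = 0.0133).

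ILMN_3071908 did not pass in vehicle-injected offspring and ran the other way (-0.54 ± 0.24, adjusted p = 0.131), and without CTL-vehicle replicate 1 it passed as lower (-0.96, adjusted p = 0.0164). Sprr2e did not pass either (-0.41 ± 0.15, adjusted p = 0.0688, or 0.0415 without BPA-vehicle replicate 1). The groups did not overlap for 8 of 8 probes, against 51.7% of all probes. Without CTL-vehicle replicate 2 the calls of ILMN_3150677 (adjusted p = 0.0989) and Sprr2f (adjusted p = 0.0965) were lost, and Sprr2f was lost also in a fit of these groups alone (adjusted p = 0.0501). Without background correction the changes of Sprr1a and ILMN_3150677 were 0.98 and 0.30.

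**Figure D4:**
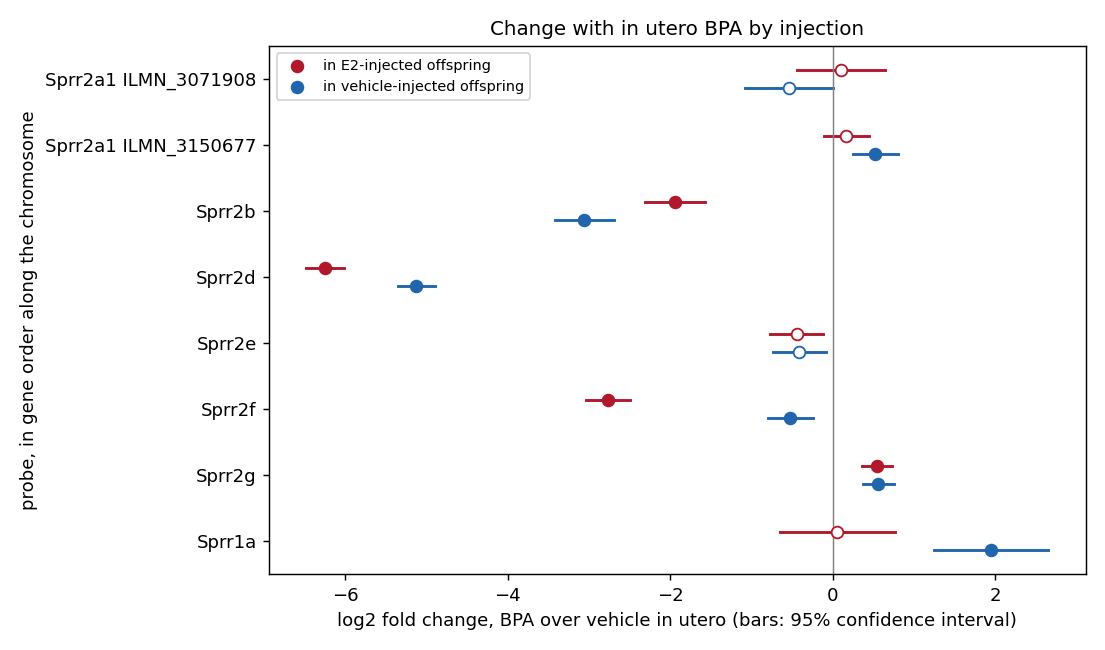
Log2 fold change with BPA over vehicle in utero for each small proline-rich probe, in E2-injected (red) and vehicle-injected offspring (blue), with 95% confidence intervals; filled points passed at an adjusted p under 0.05. Sprr2d and Sprr2b are far below 0 under both injections, Sprr2f mainly under E2, Sprr2g is above 0 under both, and Sprr1a is above 0 under vehicle injection.

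Uteri that had BPA in utero alone were also set against uteri that had E2 alone. Sprr2d (-3.50 ± 0.10, adjusted p = 5.48e-07) and Sprr2b (-1.62 ± 0.16, adjusted p = 0.000659) were lower in BPA-vehicle than in CTL-E2 uteri. Sprr1a (1.99 ± 0.31, adjusted p = 0.00562) and Sprr2g (0.88 ± 0.08, adjusted p = 0.000436) were higher. The Sprr2b call is again not independent of the filter. Without background correction the changes of Sprr2b and Sprr1a were -0.59 and 0.97, and in the authors' deposited table -0.58 and 0.97. Sprr2f was just past the threshold (-0.43 ± 0.12, adjusted p = 0.0495), a call lost under 11 of 21 alternatives. They include leaving out CTL-E2 replicate 1 (0.222) or 2 (0.108), any BPA-E2 array (0.0677 to 0.0749), or BPA-vehicle replicate 1 (0.121) or 2 (0.118). In all, 3 of 8 probes were lower and 2 higher, against 5.87% and 5.94% of all probes, and the groups did not overlap for 6 of 8, against 43.7%.

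With both exposures against neither, 4 of 8 probes were lower and 1 higher, against 19% and 23.1% of all probes. Sprr2d was 234-fold lower in BPA-E2 than in CTL-vehicle uteri (-7.87 ± 0.10, adjusted p = 2.07e-09), Sprr2f 7.21-fold (adjusted p = 5.01e-07) and Sprr2e 1.79-fold (-0.84 ± 0.15, adjusted p = 0.00165). Sprr2b was at least 7.28-fold lower (adjusted p = 1.01e-06), a call that is not independent of the filter. Without background correction the log2 changes of Sprr2d, Sprr2b and Sprr2e were -6.28, -1.59 and -0.49, that of Sprr2b being smaller than its bound. Sprr2g was 0.23 ± 0.08 higher (adjusted p = 0.0461), a call lost under 11 of 21 alternatives, among them cyclic loess (0.203) and leaving out any array of the CTL-vehicle (0.131 and 0.143), BPA-E2 (0.0831 to 0.101) or BPA-vehicle group (0.0542 to 0.0649). The Sprr2a1 probes did not pass, but without CTL-vehicle replicate 1 ILMN_3150677 was called higher (0.0188) and ILMN_3071908 lower (0.0439), and ILMN_3150677 was called higher without BPA-E2 replicate 3 (0.0456). Sprr1a, which stood out with BPA alone, did not pass here (0.02 ± 0.31, adjusted p = 0.973). The groups did not overlap for 5 of 8 probes, against 62.4%.

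Of 10 further small proline-rich genes, 7 had probes and 6 of these were not above background on any array. They were Sprr1b, Sprr2h, Sprr2i, Sprr2j-ps, Sprr2k and Sprr3. Sprr2h, Sprr2i and Sprr2k carry the AP-1 element and the octamer in their promoter windows, as Sprr2d does. Sprr4, a member at the far end of the cluster, was detected on both CTL-vehicle arrays and on no other. It passed the filter through that group alone, so no test of it is given.

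Most partners of these proteins in the cornified envelope did not pass the test or were not detected. Of 35 cornified envelope and cross-linking genes on the array, 15 were never detected, and of 15 tested 2 were higher and 2 lower with E2 after BPA, close to the shares of all probes (13% and 11.9%). The 4 called were the corneodesmosome protein Cdsn (0.86 ± 0.22), the plakins Ppl (0.43 ± 0.10) and Evpl (-0.39 ± 0.10), which form the scaffold of the envelope, and the cross-linking transglutaminase Tgm2 (-0.39 ± 0.08). With litter as a block, and without BPA-E2 replicate 3 or BPA-vehicle replicate 3, 0 were higher. There was 1 higher without BPA-E2 replicate 1, and 1 lower without BPA-E2 replicate 2 or 3 or BPA-vehicle replicate 1 or 3.

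The S100 genes, calcium-binding proteins of the same chromosomal complex, were measured for 11 of 13. With E2 after BPA, 2 were higher and 4 lower, against 13% and 11.9% of all probes. S100a9 (1.35 ± 0.11) and S100a8 (0.84 ± 0.07), which neutrophils also carry, were higher, while S100a11 (-0.56 ± 0.07) and S100a1 (-0.67 ± 0.08) were lower. Transcription factors known to act on small proline-rich genes were higher for 2 and lower for 3 of 15, against the same 13% and 11.9% of all probes. The epithelial ETS factor Elf3 (-1.69 ± 0.08) and the AP-1 subunit Jun (-0.48 ± 0.08) fell, while Ets1 (0.55 ± 0.07) and Junb, another AP-1 subunit (0.44 ± 0.09), rose.

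Most markers of the simple uterine epithelium were lower with E2 after BPA, and the counts differed between comparisons. With E2 after BPA, 11 of 14 tested were lower and 2 higher, with a median change of -0.84, led by the mucin Muc1 (-2.05 ± 0.07), Elf3 and the keratins Krt19 (-1.48 ± 0.07) and Krt7 (-1.44 ± 0.10). After vehicle in utero, 8 of 14 were lower and 0 higher with a median of -0.38, but 5 were lower with litter as a block, and 4 or 5 without any one of the 4 control arrays. Among E2-injected offspring 10 of 14 were lower and 2 higher with BPA. Under vehicle injection, where Sprr2d and Sprr2b were lower with BPA, 4 were lower and 3 higher (1 higher without CTL-vehicle replicate 1), with a median of -0.11. With BPA alone against E2 alone, 0 were lower and 3 higher, with a median of 0.16. With both exposures against neither, where the fall of Sprr2d was largest, 11 were lower and 3 higher, with a median of -1.14. Of all probes, 11.9% were lower and 13% higher with E2 after BPA, and 9.11% and 8.96% with E2 after vehicle in utero. With BPA these shares were 12.8% and 13.7% under E2, and 12.7% and 14.2% under vehicle injection. With BPA alone against E2 alone they were 5.87% and 5.94%, and with both exposures against neither 19% and 23.1%. The summed linear intensity of the markers was 13250 to 13870 in BPA-E2 uteri, 26630 to 29450 in BPA-vehicle uteri, 23040 to 23510 in CTL-E2 uteri, and 32940 to 33650 in CTL-vehicle uteri. The lowest sum was in BPA-E2 uteri, where Sprr2d and Sprr2f were also lowest, and its part in the small proline-rich changes was not tested.

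Markers of stratified squamous epithelium, the usual home of these proteins, were sparse. Of 18 on the array, 8 were never detected, including the basal keratin Krt5, the keratins Krt6a, Krt6b and Krt16, and the desmosomal cadherins Dsg3 and Dsc3. Of 10 tested, 3 were lower with E2 after BPA, Krt14 (-0.57 ± 0.08), Krt1 (-0.83 ± 0.18) and Krt10 (-0.38 ± 0.08), and the same 3 were higher in BPA-vehicle than in CTL-vehicle uteri (0.85, 0.93 and 0.58). Of all probes, 11.9% were lower with E2 after BPA, and 14.2% were higher in BPA-vehicle than in CTL-vehicle uteri. The summed intensity of the markers was 1514 to 1599 in BPA-E2 uteri, 1874 to 1959 in BPA-vehicle uteri, 1314 to 1380 in CTL-E2 uteri, and 1368 to 1420 in CTL-vehicle uteri. The sum was highest in BPA-vehicle uteri, as was Sprr1a, and its part in the Sprr1a values was not tested.

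The summed level of neutrophil markers was lower in every other group than in CTL-vehicle uteri. Their summed intensity was 1364 to 1405 in BPA-E2 uteri, 1584 to 1686 in BPA-vehicle uteri, 3131 to 3273 in CTL-E2 uteri, and 7874 to 8074 in CTL-vehicle uteri. The group means of Sprr2d, Sprr2b, Sprr2e and Sprr2f share this order, but each step of it was called for Sprr2d alone. Of 9 neutrophil markers tested, 8 were lower with BPA among vehicle-injected offspring (5 without CTL-vehicle replicate 2) and 6 with E2 after vehicle in utero. With E2 after BPA 2 were higher (S100a8 and S100a9) and 2 lower (Retnlg, -2.60 ± 0.11, and Mpo, -1.19 ± 0.15), and 4 were lower without background correction. Of all probes, 12.7% were lower with BPA under vehicle injection and 9.11% with E2 after vehicle in utero. With E2 after BPA, 13% of all probes were higher and 11.9% lower. The part of neutrophils in the small proline-rich values was not tested.

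The mean of the 8 probes, each centred on its own mean over the 10 arrays, was -0.93 in BPA-E2 uteri, 0.07 in BPA-vehicle uteri, 0.39 in CTL-E2 uteri and 0.90 in CTL-vehicle uteri. Sprr2d, with the widest range, contributes most to this mean, which also takes in members with other orders. A gene near this profile need not be near any single member. Ranked by the root mean square difference from this profile over the 10 arrays, the nearest other genes were Ank (0.092), a membrane protein of pyrophosphate export, and Plet1 (0.0978), a surface protein first found in placenta. They were followed by the lipid phosphatase Sgpp2 (0.12), the lysosomal protease Ctsh (0.124), the lipid transporter Abca3 (0.125), Tril (0.129), the amino sugar enzyme Amdhd2 (0.144) and the epithelial integrin subunit Itgb6 (0.147). Between single member probes the difference ran from 0.22 (ILMN_3150677 and Sprr2g) to 3.34 (Sprr1a and Sprr2d). The nearest genes were picked as the smallest differences from a mean profile, and the member pairs were not picked. These sizes therefore cannot be set against each other. Sprr2d and its neighbour Sprr2e differed by 2.76, and Sprr2d and Sprr2f by 2.05.

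Each member except Sprr2a1, whose probes disagreed, was also matched by itself, a step added after the values were seen. The gene nearest to Sprr2f was Lcn2 (root mean square difference 0.16), the secreted lipocalin 2, with means of 12.38 in BPA-E2 uteri, 14.88 in BPA-vehicle uteri, 15.47 in CTL-E2 uteri and 15.46 in CTL-vehicle uteri. For Sprr2d it was the chitinase-like gene Chil1 at a wide 0.72, with means of 6.60 in BPA-E2 uteri, 7.71 in BPA-vehicle uteri, 12.82 in CTL-E2 uteri and 13.61 in CTL-vehicle uteri. Sprr1a was nearest to Coq2 (0.33), an enzyme of ubiquinone synthesis, and to Itga2 (0.34), a collagen-binding integrin subunit, both highest in BPA-vehicle uteri. Sprr2b was nearest to Atg9b (0.23), Sprr2e to Usp3 (0.083) and Sprr2g to Sh3pxd2b (0.061).

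**Figure D5:**
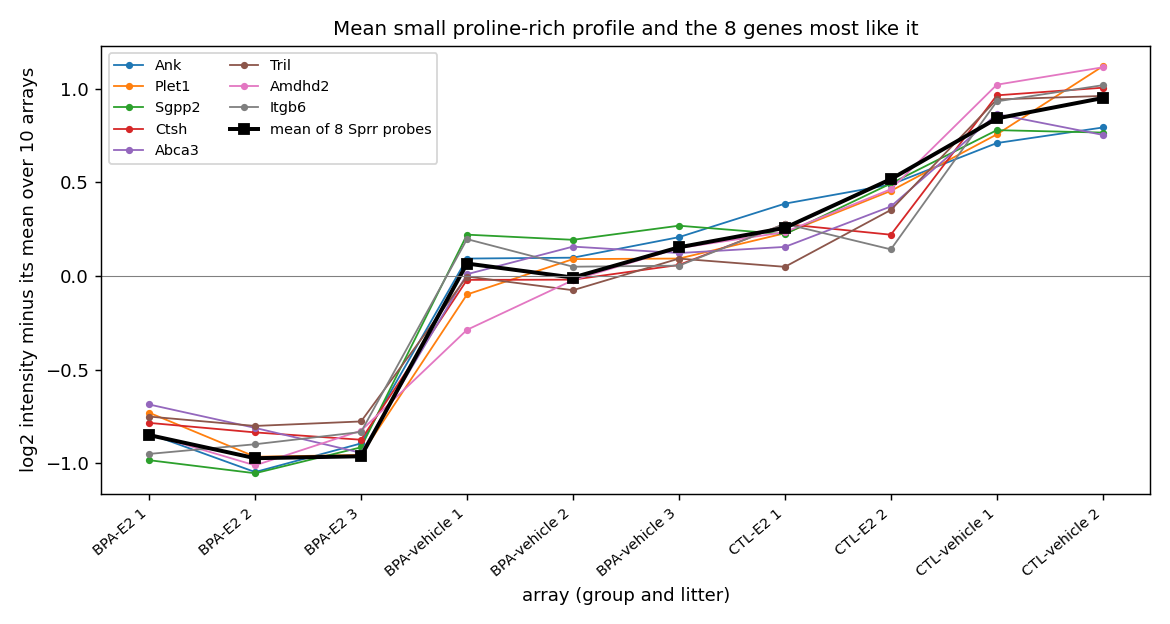
Log2 intensity minus its mean over the 10 arrays, for the mean of the 8 small proline-rich probes (black squares) and the 8 genes most like it (coloured circles), on each array from BPA-E2 to CTL-vehicle. All profiles are lowest on the 3 BPA-E2 arrays and highest on the 2 CTL-vehicle arrays, with BPA-vehicle and CTL-E2 arrays between them.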

How the data were processed

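The deposited non-normalized file gives, per the file headers, the average signal of the beads of a probe (a linear intensity) together with its detection p-value on every array. The scanner and summary software are not given in the sources used here. A second deposited table, used as an alternative, holds the authors' processed linear intensity. Signals were background-corrected from the detection p-values (neqc, offset 16), quantile-normalized and taken to log2 with limma 3.58.1 in R 4.3.3. Probes detected at p under 0.05 on at least 2 arrays were kept (23942 of 45281), each tested by itself. Of all probes, 34885 had 1 gene symbol in the platform annotation, 18 several and 10378 none. One limma fit of 4 group means gave 7 comparisons. P-values reflect the variation among these litter pools alone.

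The members and lists were chosen with earlier results of these data known. Named genes are all member probes, at most 4 genes per list with the smallest adjusted p for E2 after BPA, and the 8 genes nearest in profile. Litter numbers in the labels pair E2 and vehicle arrays. Deviations within litters correlated at -0.0303 to 0.0196, and litter served as a block in an alternative (statmod 1.5.0, consensus correlation 0.00952 for comparisons between exposures). Further alternatives changed the background step (none, or an offset of 50), the scaling (cyclic loess, or the table processed by the authors), the filter (none, or at least 5 arrays with detection), the probes (1 per symbol), the variance model (trend with robust estimation, or weights per array) and the arrays in the fit (the compared groups, or all but 1). The scripts were tested on simulated data. Windows were aligned with Biopython 1.88 and figures drawn with matplotlib 3.10.9.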

Additional observations from a re-analysis of the deposited data

Results flagged for a closer look

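The E2 response differed between the in utero exposures for 4 small proline-rich probes, by the test of the difference itself (response after BPA minus response after vehicle in utero). The difference was -2.25 for Sprr2f, -1.89 for Sprr1a, -1.13 for Sprr2d and 1.11 for Sprr2b on the log2 scale. For Sprr2d and Sprr2b, values at or near background in BPA uteri enter the difference. A fall of Sprr2b from that level could hardly be measured, and its probe passed the filter mainly through control arrays. For Sprr1a, values at or near background in BPA-E2, CTL-E2 and CTL-vehicle uteri enter the difference. Exposure and slide cannot be told apart in it.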

How the results depend on the processing

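Over 21 alternatives, the falls of Sprr2d, Sprr2f, Sprr1a and Sprr2g with E2 after BPA, of Sprr2d and Sprr2b with E2 after vehicle in utero, and of Sprr2d and Sprr2b with BPA kept direction and call. The Sprr2b calls with BPA are of a probe that passed the filter mainly through control arrays. In all, 1045 member values kept both, 57 lost and 21 gained a call, and 31 changed sign. Litter as a replicate block changed no member call beyond those given beside the results, and took the probes called for the difference of responses to 1879, against 2908. The Sprr2d difference of responses reversed without background correction (0.0715) and in the authors' table (0.1092). The other reversals were of values that had not passed. The E2 change of Sprr1a after vehicle was 0.0083 without background correction, 0.0073 with an offset of 50, 0.0081 in the authors' table and -0.6617 to 0.5801 leaving out arrays. There, leaving out arrays gave -0.7469 to 0.0956 for ILMN_3071908, -0.0296 to 0.3306 for ILMN_3150677 and -0.2123 to 0.0421 for Sprr2f. The Sprr2e difference was 0.007 without background correction, 0.0104 in the authors' table and -0.1612 to 0.0657 leaving out arrays, and that of Sprr2g 0.0209 with cyclic loess and -0.0993 to 0.0652 leaving out arrays. With BPA under E2, Sprr1a was -0.0443 with cyclic loess and -0.564 to 0.6778 leaving out arrays, and ILMN_3071908 -0.1547 to 0.3651. With BPA alone against E2 alone, Sprr2e was 0.0187 with array weights and -0.1151 to 0.1118 leaving out arrays, and ILMN_3071908 -0.4742 to 0.0456. With both exposures, Sprr1a was -0.1117 with cyclic loess and -0.1305 to 0.156 leaving out arrays, and ILMN_3071908 -0.6417 to 0.2008. Probes called for BPA alone against E2 alone numbered 2826, but 4243 without background correction, 4274 in the authors' table, 4533 with a variance trend and robust estimation, 1159 in a fit of the compared groups and 1032 to 2638 leaving out arrays (fewest without CTL-E2 replicate 1). For E2 after vehicle they numbered 4326, but 1368 in a fit of the compared groups and 2582 to 4201 leaving out arrays. Leaving out arrays gave 4094 to 6338 for BPA under E2 (6349) and 4170 to 6278 for BPA under vehicle injection (6438). Members called higher with both exposures were 0 with cyclic loess, with no filter and in a fit of the compared groups, and 0 to 1 leaving out arrays, and for the difference of responses 0 to 2. The fit of the compared groups was not run for the difference, which needs all 4. The cause of these shifts was not tested.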
